A study of Mus musculus with 6 samples.

Results

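The cytosolic ribosomal protein genes encode the proteins that, with ribosomal RNA, make up the large and small subunits of the cytoplasmic ribosome. They were taken from the deposited array table by symbol (Rpl or Rps and a number with at most 1 further letter of a, l, x or y, the stalk genes Rplp0 to Rplp2, and Rpsa), which leaves out pseudogene symbols and the kinases that phosphorylate ribosomal protein S6. The pattern found 76 of the 27365 genes with a symbol, 46 of the large and 30 of the small subunit. Where several of the array's transcript clusters (groups of probes summarised as 1 value) carried a symbol, the cluster with the highest mean over the 6 arrays was used, as for all other genes. For 21 of the 76 genes (27.6%) that cluster was annotated with a cross-hybridisation class other than 1, which means that its probes also match other transcripts. The share over all genes was 7.49%.

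RNA was measured on Affymetrix MoGene 2.0 ST arrays in fully differentiated primary fat cells grown from mouse inguinal fat, a subcutaneous white depot. The PBS group (3 arrays) was the control, and the KYNA group (3 arrays) received 50 µM kynurenic acid, a metabolite of tryptophan, for 12 h. No genotype, strain, sex or age of the animals is given in the sources used here. The labels call the replicates technical and name no separate cultures or animals. All p-values therefore describe array-to-array spread, which can be technical in origin.

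Ribosomal proteins are made in near-equal amounts, and their mRNAs are among the most abundant of growing cells. Most of these mRNAs begin with a C followed by a run of pyrimidines, the terminal oligopyrimidine (TOP) tract, through which the kinase complex mTORC1 and the RNA-binding protein Larp1 set how strongly they are translated. Many of the genes carry small nucleolar RNAs (snoRNAs), guides for the modification of ribosomal RNA, in their introns, and the family has left many processed pseudogene copies in the mouse genome. Free ribosomal proteins such as Rpl5 and Rpl11 can bind Mdm2 and so link faulty ribosome production to p53.

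A pyrimidine run starting with C, within 50 bases of the annotated start, was the most frequent of the 4 motifs searched in the promoters. The run did not have to lie at the first base of the mRNA, so it need not be a TOP tract. For 8 examples, 30 bases of RefSeq sequence (GRCm38.p6) around the run are shown on the strand of the gene, with the run in capitals. Counted from the annotated start, the run begins at -22 in Rps25, 24 in Rpl35a and 31 in Rpl3l, and between -4 and 2 in the others. The examples are genes that the results below turn on, with Rps6 for the best known target of the pathway and Rpl3l for a muscle paralog.
Rps18, chr17:33955647-33955676, minus strand: tcacttccgCTCTCTCTTCCacaggaggcc
Rplp2, chr7:141447637-141447666, plus strand: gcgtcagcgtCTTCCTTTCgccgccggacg
Rps27, chr3:90213631-90213660, minus strand: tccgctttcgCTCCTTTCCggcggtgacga
Rps25, chr9:44407684-44407713, plus strand: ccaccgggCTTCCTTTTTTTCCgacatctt
Rpl35a, chr16:33056469-33056498, plus strand: ggggcttgCCTTCCTCTTTCCgccatcttg
Rpl13a, chr7:45128722-45128751, minus strand: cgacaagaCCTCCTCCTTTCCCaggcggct
Rps6, chr4:86857349-86857378, minus strand: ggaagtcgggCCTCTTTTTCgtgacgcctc
Rpl3l, chr17:24727846-24727875, plus strand: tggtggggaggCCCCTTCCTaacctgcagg

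RefSeq promoter sequence was matched for 59 of the 76 genes. A run of at least 8 pyrimidines that starts with C, on the gene strand within 50 bases of the annotated start, was present in 48 of them (81.4%) and in 28.9% of 17492 protein-coding genes. The letters CTCTTTC, which lie inside such runs, were found in the same window of 11 genes (18.6%) against 1.23% of all. CCGGAAGT, searched on both strands of the 300 bases, was found in 12 genes (20.3%) against 5.28%. TATAAA, searched on the gene strand in the 50 bases before the start, was found in 0 of 59 genes against 3.54% of all. A match is a description of the letters in the window, and annotated starts can differ from the start of transcription in these cells.

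No cytosolic ribosomal protein transcript passed the test between kynurenic acid and PBS. In limma, fitted over all 27365 genes with Benjamini-Hochberg adjustment, 0 of the 76 genes passed an adjusted p of 0.05 (smallest adjusted p = 0.497, for Rps19), and over all genes the share called was 0% in each direction (smallest adjusted p = 0.437). At an unadjusted limma p under 0.05, 3 genes were higher with KYNA (Rpl32, Rps19 and Rps18) and 0 were lower, where the shares over all genes were 4.7% higher, 5.03% lower and 9.73% in either direction. The methods' t-test, named in the authors' table, had 2 higher and 0 lower at that level. The 3 KYNA arrays all lay above the 3 PBS arrays for 4 genes (Rpl7a, Rpl32, Rps19 and Rps18) and all below for 1 (Rpl14), against 7.16% and 7.62% of all genes (14.8% together). The members' counts correspond to 5.26% and 1.32%, so they were not above the background.

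As a group the genes stayed near 0. The median log2 change, KYNA minus PBS, was 0.01, with 43 genes above 0 and 33 below, beside a median of 0.007 over all genes. With each array centred on its median both medians were -0.03. Single changes ran from -0.32 (Rpl37) to 0.33 (Rps15), and 44 genes lay within 0.1 of 0. The large subunit had a median change of 0.003 and the small subunit of 0.05. For 70 of the 76 genes the 95% interval of the change lay within 1.5-fold in both directions, so for these a larger change was outside the interval. The interval holds for the cluster that was read. For some genes that cluster lay near the background, at a pseudogene locus or over a snoRNA, and there it need not bound the change of the gene's mRNA. The widest bounds were -0.73 and 0.81. The deposited values were normalised to a common distribution, and the family can therefore be read only relative to the other transcripts on the array.

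**Figure D1:**
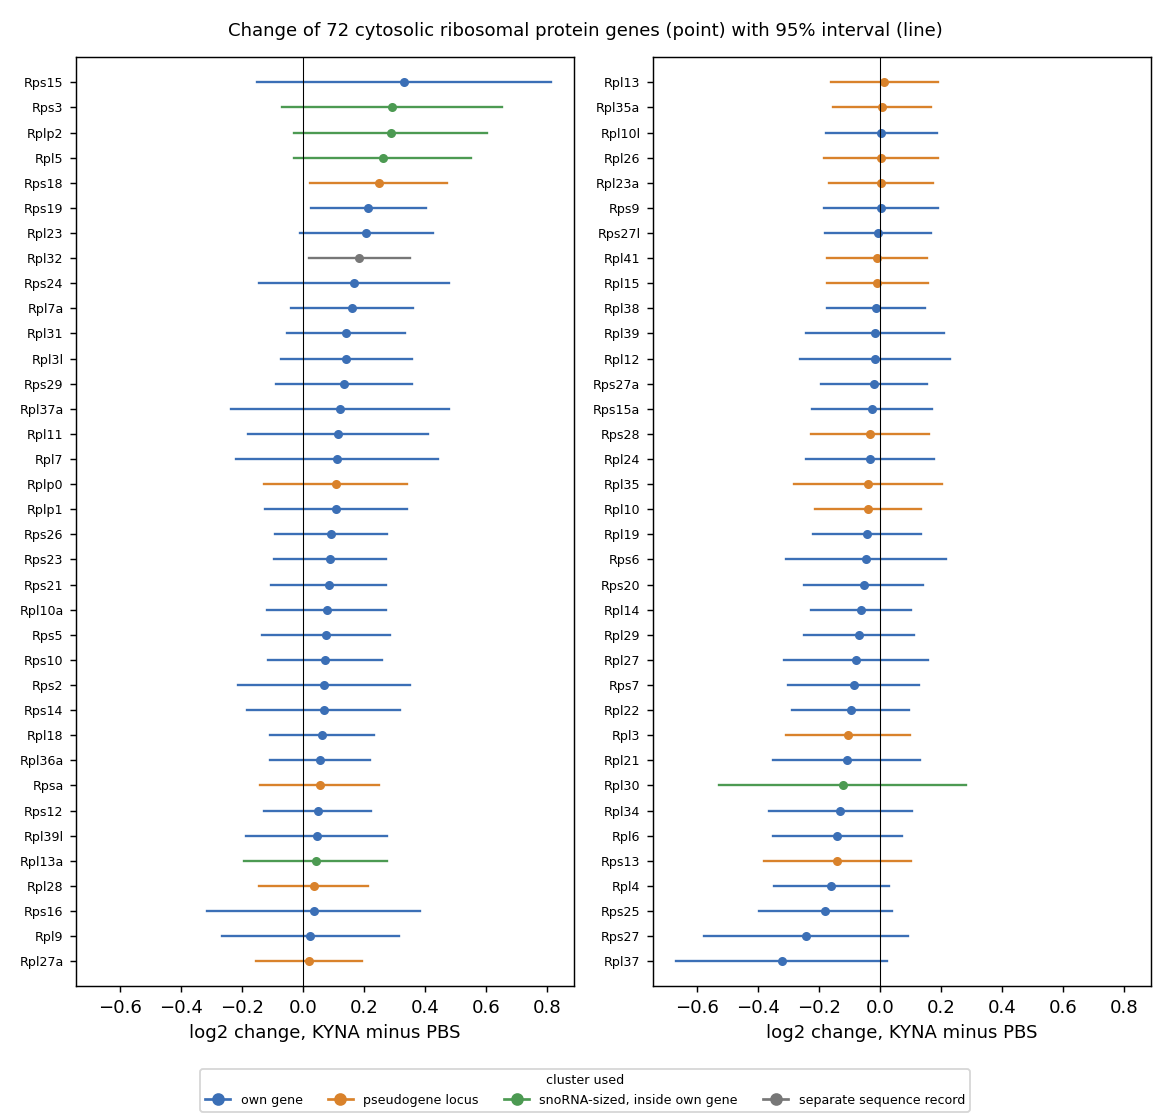
The log2 change between KYNA and PBS (x axis) is plotted for all but 4 of the 76 genes (y axis, ordered by change, highest at the top left and lowest at the bottom right), with its 95% limma interval as a line. Colour marks where the cluster used lies. Only Rps18, Rps19 and Rpl32 have intervals that do not cross 0, and Rps15 has the widest interval.

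The arrays differed little in the family as a whole. Mean deviations of the 76 genes from their own 6-array means were 0.014, -0.063 and 0.017 in the PBS arrays and -0.006, 0.009 and 0.028 in the KYNA arrays. PBS array 2 was the lowest of the 6. Array medians over all genes were 4.24 to 4.31 log2, and pairwise Pearson correlations over genes were 0.9926 to 0.9957. The arrays numbered 2 stood apart in 12 interferon-stimulated genes, with mean deviations of 0.73 (PBS array 2) and 0.37 (KYNA array 2) against -0.45 to -0.18 in the other 4. Without both arrays numbered 2 the median change of the ribosomal protein genes was 0.

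Which RNA a value reports can depend on the cluster. Clusters were sorted by position only, as probe sequences were not available, so the RNA bound was not tested. For 53 genes the cluster used covered the gene itself. For 16 genes it lay at another locus, in each case over a RefSeq pseudogene, and for 6 it was a cluster of at most 150 bases inside the gene's own span. For Rpl32 it was placed on a separate sequence record instead of a chromosome. Over all 115 clusters under these symbols, 74 covered the own gene, 20 lay at pseudogene loci (18 of them in cross-hybridisation class 3), 15 were small, and 5 lay at the own locus on the opposite strand. Of the 15 small clusters, 68 to 145 bases long, 14 overlapped a RefSeq snoRNA.

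Cluster brightness depends on the probes, and levels of different clusters were therefore set only against the array's background. The 23 antigenomic control probe sets, which match no mouse sequence, had means of 3.58 to 3.91 log2 per array. Own-gene clusters had 6-array means from 2.17 to 11.22 log2 with a median of 4.97, and 6 of the 74 lay below that background in all arrays. None of the 20 pseudogene-locus clusters did, with means from 4.26 to 11.56 and a median of 9.89. By gene, 67 of the 76 lay above the background mean in every array and 3 below it in every array. Genes whose mean in at least 1 group lay below it included Rpl10l, Rpl3l, Rps15, Rps16, Rps19 and Rps26. For these a change was read near the floor of the measurement. The background means themselves were 3.58 to 3.76 in PBS and 3.76 to 3.91 in KYNA, and their part in such changes was not tested. Rps26 had 2.01, 2.15 and 2.21 in PBS and 2.22, 2.24 and 2.18 in KYNA, and Rps16 had 3.39, 3.8 and 3.96 in PBS and 3.54, 3.94 and 3.77 in KYNA. The groups overlapped for both small-subunit genes.

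**Figure D2:**
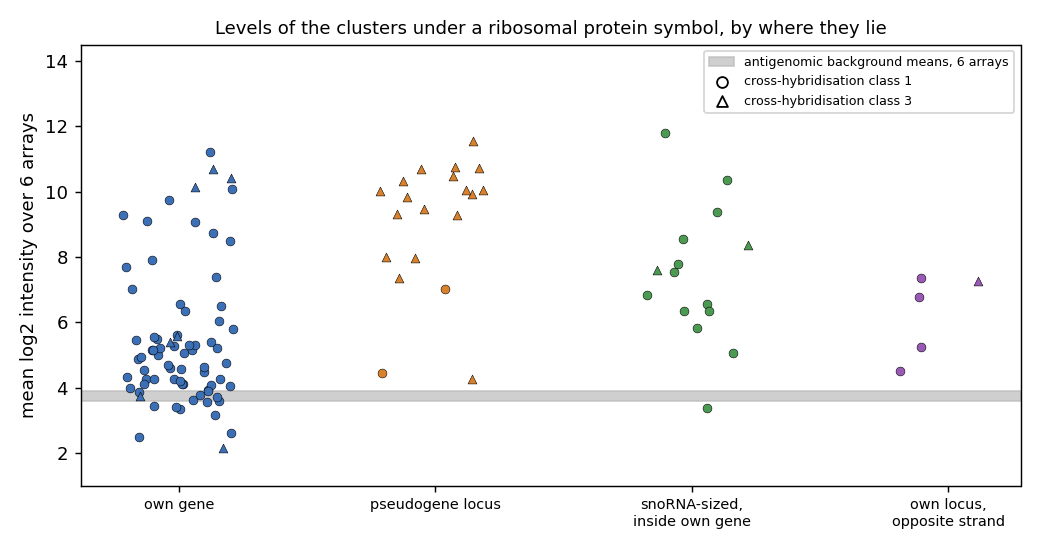
Each point is a transcript cluster under the 76 symbols (115 in all, of which the Rpl32 record is left out), at its mean log2 intensity over the 6 arrays (y axis), grouped by position (x axis); circles are cross-hybridisation class 1, triangles class 3. The grey band spans the antigenomic background means of 3.58 to 3.91, into or below which some own-gene clusters fall, while all pseudogene-locus clusters lie above it.

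Clusters annotated as matching several transcripts varied less between arrays. The 21 genes read in class 3 had a median within-group SD of 0.075 and a median absolute change of 0.04. For the 55 genes in class 1 these were 0.128 and 0.097, and over all genes 0.116 and 0.087. Class went together with brightness. Most pseudogene-locus clusters (median 9.89 log2) were class 3, and most own-gene clusters (median 4.97) were class 1. The part of brightness in the spread was not tested. The 16 genes read at pseudogene loci had a median change of 0.003 with a median absolute change of 0.033.

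The ribosomal stalk is the flexible protrusion of the large subunit that recruits elongation factors, with Rplp0 as its base and Rplp1 and Rplp2 as its arms. Rplp0, read at a pseudogene locus, had 8.14, 7.78 and 7.82 log2 in PBS and 8.03, 8.03 and 8.0 in KYNA (change 0.11 ± 0.10 SE). Rplp1 had 10.76, 10.49 and 10.70 in PBS and 10.90, 10.64 and 10.73 in KYNA (change 0.11 ± 0.10 SE). The groups overlapped for both genes.

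Rplp2 had 9.26, 8.91 and 9.52 in PBS and 9.51, 9.45 and 9.59 in KYNA, a change of 0.29 that did not pass limma (adjusted p = 0.536). That value came from a 137-base cluster over Snora52, a snoRNA inside the gene. PBS array 2 was the lowest of the 6, and without it the change was 0.13 (0.13 to 0.43 when each array was left out in turn). The cluster that covers the whole Rplp2 gene had 3.62, 3.47 and 3.75 in PBS and 3.57, 3.60 and 3.55 in KYNA, a change of -0.04 at the level of the background.

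Rpl5 and Rpl11, which join the small ribosomal RNA of the large subunit before it is assembled, were measured in different ways. Rpl5 was read in a 94-base cluster over Snord21, with 7.65, 7.41 and 7.91 in PBS and 7.81, 7.89 and 8.05 in KYNA (change 0.26, limma adjusted p = 0.541). PBS array 2 was the lowest, and without it the change was 0.14 (0.14 to 0.39 when each array was left out in turn). Its own-gene cluster changed by 0.17 ± 0.24 (SE). Rpl11 had 3.77, 4.12 and 4.10 in PBS and 4.30, 3.89 and 4.14 in KYNA (change 0.11 ± 0.13 SE). The groups overlapped in all of these.

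Rpl3, Rpl4 and Rpl10 belong to the core of the large subunit, Rpl3 and Rpl10 near its catalytic centre and Rpl4 along the exit tunnel. Rpl4 was read in its own gene, with 11.27, 11.39 and 11.24 in PBS and 11.09, 11.24 and 11.09 in KYNA, a change of -0.16 (limma adjusted p = 0.557). KYNA array 2 equalled PBS array 3, so the groups touched. Rpl3 at a pseudogene locus changed by -0.11 ± 0.09 (SE), and Rpl10, also at a pseudogene locus, by -0.04 ± 0.08.

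Rpl13a, known outside the ribosome for silencing inflammatory mRNAs in macrophages, was read in an 83-base cluster over Snord32a. It had 11.81, 11.60 and 11.94 in PBS and 11.76, 11.94 and 11.77 in KYNA (change 0.04). Its own-gene cluster changed by 0.01 and a cluster over Snord34 by 0.23, and PBS array 2 was the lowest array in all 3. Rpl22, which with its paralog Rpl22l1 also acts on RNA outside the ribosome, had 4.25, 4.09 and 4.02 in PBS and 3.99, 4.05 and 4.03 in KYNA (change -0.10 ± 0.08 SE).

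Rpl37, a zinc-binding protein of the large subunit, had the lowest change of the family. It had 4.74, 4.30 and 4.28 in PBS and 3.88, 4.36 and 4.11 in KYNA, a change of -0.32 (95% interval -0.67 to 0.02, limma adjusted p = 0.527). PBS array 1 was the highest and KYNA array 1 the lowest, and the other 4 arrays overlapped. The change was -0.17 without PBS array 1 and -0.21 without KYNA array 1. When each array was left out in turn it ran from -0.445 to -0.17.

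Rpl32, a protein of the large subunit, had 9.99, 9.96 and 10.02 in PBS and 10.19, 10.12 and 10.21 in KYNA. All KYNA arrays lay above all PBS arrays, by 0.18 log2 or 1.14-fold (95% interval 0.02 to 0.35, limma adjusted p = 0.499). The cluster is of class 3 and the symbol has no other, so the gene's own locus on its chromosome was not measured apart from it. Rpl7a, which had non-overlapping groups too, changed by 0.16 (adjusted p = 0.576). Rpl14, with all KYNA arrays lower, changed by -0.06 (adjusted p = 0.791).

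Rpsa, also known as the laminin receptor, and Rps3, which lines the mRNA entry channel and also acts in DNA repair, are small-subunit proteins with other roles. Rpsa, at a pseudogene locus, had 10.10, 9.87 and 10.05 in PBS and 10.05, 10.11 and 10.02 in KYNA (change 0.05 ± 0.09 SE). Rps3 had 10.28, 9.83 and 10.56 in PBS and 10.49, 10.47 and 10.58 in KYNA, a change of 0.29 (limma adjusted p = 0.576) in a 145-base cluster over Snord15b. Without PBS array 2 that change was 0.09 (0.09 to 0.46 when each array was left out in turn). The own-gene cluster of Rps3, with 9.32, 9.18 and 9.27 in PBS and 9.26, 9.31 and 9.32 in KYNA, changed by 0.04.

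Rps6 is the substrate of the S6 kinases downstream of mTORC1. It had 4.81, 4.39 and 4.79 in PBS and 4.63, 4.58 and 4.64 in KYNA (change -0.05 ± 0.12 SE). The 3 KYNA arrays lay inside the range of the PBS arrays. Rps27a, made as a fusion with ubiquitin, had 4.34, 4.29 and 4.22 in PBS and 4.2, 4.31 and 4.28 in KYNA, a change of -0.02 ± 0.08 (SE).

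Rps19, a small-subunit protein mutated in the human disorder Diamond-Blackfan anaemia, lay near the background. It had 3.71, 3.78 and 3.57 in PBS and 3.86, 3.88 and 3.96 in KYNA, all KYNA arrays above all PBS arrays, with a change of 0.21 (95% interval 0.02 to 0.40, limma adjusted p = 0.497). The antigenomic means were 3.76, 3.58 and 3.75 in the same PBS arrays and 3.88, 3.76 and 3.91 in the KYNA arrays, and their part in this value was not tested.

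Rps18, a protein of the head of the small subunit, has 3 clusters, all with changes above 0. The cluster used, chr13:28257790-28258137 (mm10) over the pseudogene Rps18-ps5, had 6.84, 6.74 and 7.08 in PBS and 7.19, 7.09 and 7.12 in KYNA. Every KYNA array lay above every PBS array, by 0.25 log2 or 1.19-fold (95% interval 0.02 to 0.47, limma adjusted p = 0.5). The own-gene cluster had 3.15, 2.98 and 3.10 in PBS and 3.29, 3.30 and 3.22 in KYNA, a change of 0.19 without overlap but below the background means. Those means were 3.58 to 3.76 in PBS and 3.76 to 3.91 in KYNA, and their part in this change was not tested. The remaining cluster changed by 0.06. Without PBS array 2 the change of the cluster used was 0.17 (0.17 to 0.34 when each array was left out in turn).

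Rps15, of the head of the small subunit, had the highest change of the family and the widest spread. It had 2.95, 3.61 and 3.03 in PBS and 3.96, 3.36 and 3.26 in KYNA, a change of 0.33 (95% interval -0.15 to 0.81, limma adjusted p = 0.626). PBS array 2 lay above KYNA arrays 2 and 3. All values but those of PBS array 2 and KYNA array 1 were below their array's background mean. Leaving out 1 array gave 0.11 (without KYNA array 1) to 0.54 (without PBS array 2).

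Rps25, which viral and some cellular internal ribosome entry sites need, had 7.14, 7.14 and 7.05 in PBS and 6.75, 7.07 and 6.97 in KYNA (change -0.18, limma adjusted p = 0.565). KYNA array 1 was the lowest, and without it the change was -0.09 (-0.25 to -0.09 when each array was left out in turn). KYNA array 2 lay above PBS array 3, so the groups overlapped. Rps27 had 5.97, 6.15 and 6.34 in PBS and 5.97, 6.16 and 5.60 in KYNA, a change of -0.24 (limma adjusted p = 0.607). KYNA array 3 was the lowest, and without it the change was -0.09 (-0.37 to -0.09 when each array was left out in turn). The other KYNA arrays lay within the PBS range. Its paralog Rps27l, a p53 target, had 6.45, 6.52 and 6.55 in PBS and 6.46, 6.57 and 6.47 in KYNA, a change of -0.01 ± 0.08 (SE).

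Of 3 tissue-restricted paralogs, Rpl3l and Rpl10l lay below the background mean in every array. Rpl3l, the striated muscle form of Rpl3, had 3.70, 3.51 and 3.49 in PBS and 3.78, 3.57 and 3.77 in KYNA (change 0.14 ± 0.09 SE). Rpl10l, a testis form of Rpl10, had 2.39, 2.48 and 2.57 in PBS and 2.43, 2.49 and 2.53 in KYNA (change 0.0033). Rpl39l, a testis form of Rpl39, lay above the background, with 5.27, 5.60 and 5.43 in PBS and 5.36, 5.52 and 5.55 in KYNA. Rpl39 itself, a small protein of the exit tunnel, had 4.71, 4.49 and 4.55 in PBS and 4.63, 4.4 and 4.67 in KYNA. None of the 4 genes had groups that did not overlap.

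Clusters under the same symbol did not always give the same change. Of the 26 genes with several clusters, 7 had clusters on both sides of 0, the median spread of the log2 change was 0.15, and in 11 genes it exceeded 0.2 (among them Rpl13, Rpl13a, Rpl27a, Rpl30, Rpl35a, Rpl41, Rplp2, Rps12, Rps13 and Rps3). The largest spread was 0.527, in Rps12. Its 74-base cluster changed by -0.39, with 6.51, 6.70 and 6.46 in PBS and 6.28, 6.41 and 5.81 in KYNA, while the cluster over the gene, of class 3, with 10.41, 10.35 and 10.42 in PBS and 10.43, 10.37 and 10.52 in KYNA, changed by 0.05.

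Own-gene and pseudogene-locus clusters differed in Rpl13, Rpl35a and Rpl41. The own-gene cluster of Rpl13 had 4.32, 4.54 and 4.4 in PBS and 4.87, 4.62 and 4.87 in KYNA, a change of 0.37 with no overlap (limma adjusted p = 0.469 over every cluster). Its pseudogene-locus cluster had 10.14, 9.98 and 10.03 in PBS and 10.07, 10.03 and 10.09 in KYNA, a change of 0.01. For Rpl35a the own-gene cluster changed by 0.41, from 4.03, 4.36 and 4.47 in PBS to 4.87, 4.62 and 4.59 in KYNA (adjusted p = 0.469 over every cluster). The pseudogene-locus cluster lay between 9.30 and 9.34 in all 6 arrays. For Rpl41 the own-gene change was 0.28 and the pseudogene-locus change -0.01. In other genes the own-gene change was the lower, as in Rpl27a (-0.10 against 0.02), Rpl10 (-0.13 against -0.04) and Rpl3 (-0.22 against -0.11). The own-gene values of Rpl13 and Rpl35a lay not far above the background means, which were 3.58 to 3.76 in PBS and 3.76 to 3.91 in KYNA. The difference between clusters of a gene was not tested.

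**Figure D3:**
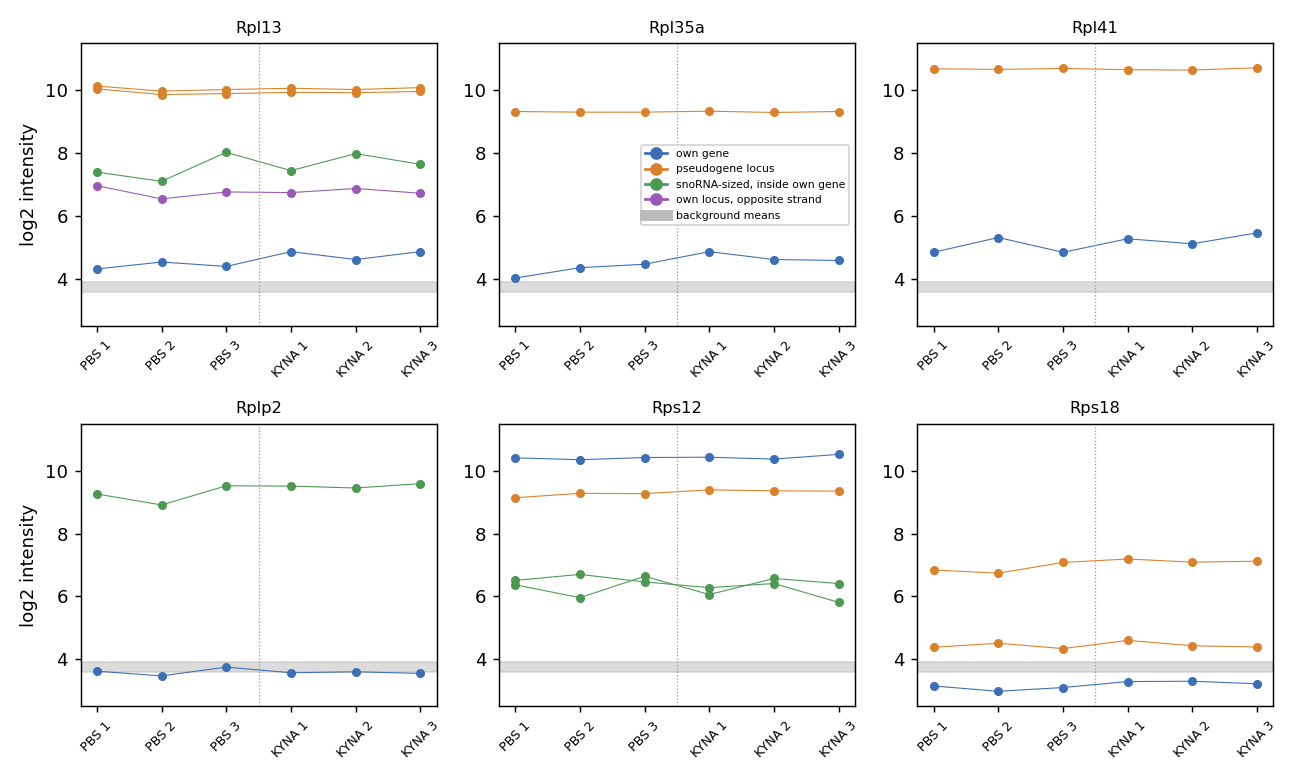
Log2 intensity (y axis) of every cluster under 6 symbols is plotted in each array (x axis, PBS left and KYNA right of the dotted line), coloured by position, with the background means as a grey band. Pseudogene-locus clusters of Rpl13, Rpl35a and Rpl41 run flat, the own-gene clusters of Rpl13 and Rpl35a are higher in all KYNA arrays, and the clusters of Rplp2 and Rps18 over their own genes lie at or under the band.

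When each gene was read in its own-gene cluster instead, 74 genes had one (Rpl28 and Rpl32 did not), and for 21 of them this replaced another cluster. The median change was 0.008 with 40 genes above 0 and 34 below, and the changes ran from -0.40 (Rpl30) to 0.41 (Rpl35a). The Rpl30 cluster lay below the background mean in 5 arrays and above it only in PBS array 1 (4.05). The Rpl35a cluster lay above it in every array, at 4.03 to 4.87. At an unadjusted limma p under 0.05, 4 of the 74 were higher and 1 lower, where the shares over all genes in the main fit were 4.7% and 5.03%. The groups did not overlap for 5 higher and 1 lower, against 7.16% and 7.62% of all genes. In limma 0 passed the adjusted threshold (smallest adjusted p = 0.469). This reading was chosen after the positions of the clusters had been seen.

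The small clusters over snoRNAs moved together from array to array. PBS array 2 was the lowest of the PBS arrays in 14 of the 15 and the lowest of all 6 in 10, while in own-gene clusters it was the lowest PBS array in 31 of 74. Mean deviations of the 15 clusters were -0.008, -0.287 and 0.212 in the PBS arrays and -0.102, 0.138 and 0.047 in the KYNA arrays. The spread among PBS arrays was thus larger than that between the groups. The median change was 0.04, with 9 of 15 above 0, and -0.097 without PBS array 2, with 5 above 0.

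The 6 genes read in such a cluster, among them Rpl13a, Rpl30, Rpl5, Rplp2 and Rps3, had a median change of 0.223 that fell to 0.021 without PBS array 2. Their mean deviations were -0.022, -0.397 and 0.183 in the PBS arrays, so PBS array 3 stood on the other side. The median without PBS array 3 is not given here. Rpl30 had 6.58, 6.44 and 6.90 in PBS and 6.14, 6.85 and 6.56 in KYNA, a change of -0.12, which was -0.22 without PBS array 2. Rpl27a, read elsewhere, has a 132-base cluster over Snora3 with 8.27, 7.96 and 8.33 in PBS and 8.52, 8.44 and 8.62 in KYNA, a change of 0.34 (adjusted p = 0.473 over every cluster) with no overlap. Its own-gene cluster changed by -0.10.

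**Figure D4:**
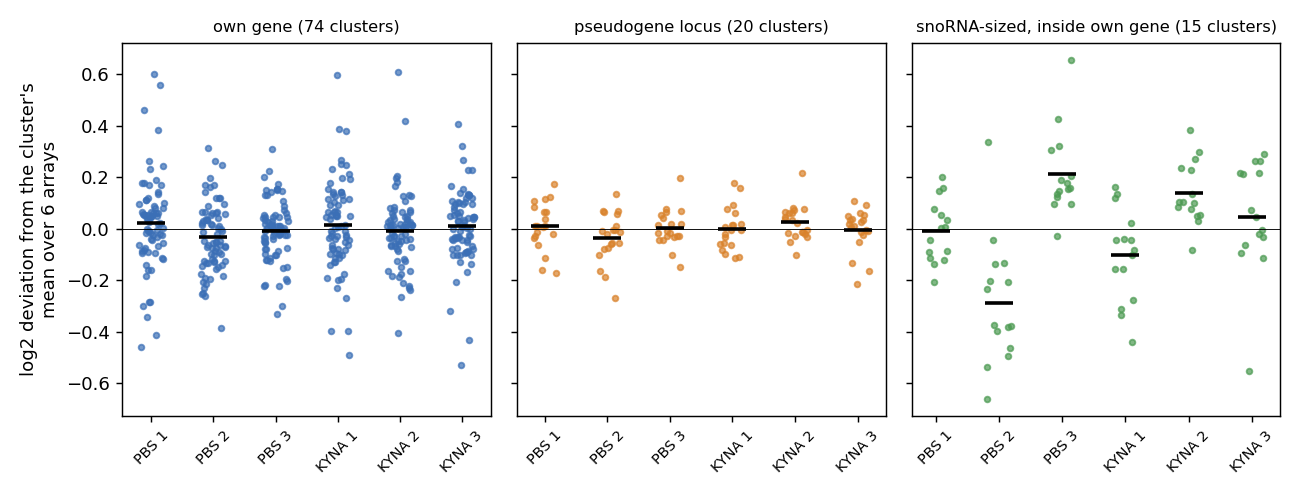
Deviation of each cluster from its own mean over the 6 arrays (y axis, log2) is plotted by array (x axis) for own-gene, pseudogene-locus and small clusters, with the mean as a bar. The small clusters are low in PBS array 2 (mean -0.287) and high in PBS array 3 (0.212), and the bars of the other classes stay close to 0.

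Other transcripts with a TOP tract, elongation factors among them, lay on both sides of 0. Of 20 measured genes of 22 listed, 8 were above 0 and 11 below, with a median change of -0.067 (-0.0336 with cyclic loess). At an unadjusted limma p under 0.05, 0 were higher and 1 lower, where the shares over all genes were 4.7% and 5.03%. Gas5, a noncoding host of snoRNAs, had the largest change with -0.26 ± 0.11 (SE, adjusted p = 0.506), followed by Btf3, a subunit of the nascent polypeptide-associated complex, with -0.17 ± 0.08 (adjusted p = 0.522). All KYNA arrays lay below all PBS arrays in 5 of the 20 genes and above in 0, against 7.62% and 7.16% of all genes. Ribosomal proteins whose symbols fall outside the pattern (6 of 9 measured) had a median of 0.028, with Rpl22l1 at 0.15 and Rps3a1 at -0.14.

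Ribosome assembly factors were mostly below 0. Of 33 measured of 34 listed, 27 were below 0 and 6 above, where 12896 of all 27365 genes were below. The median was -0.087 (-0.0494 with cyclic loess). At an unadjusted limma p under 0.05, 0 were higher and 3 lower (Pes1, Nop58 and Gnl2), which is 9.09% beside 5.03% of all genes. The groups did not overlap for 1 gene in each direction (3.03% each), against 7.62% of all genes lower and 7.16% higher. Pes1, which matures the large subunit's RNA, had 7.88, 8.04 and 7.80 in PBS and 7.55, 7.73 and 7.53 in KYNA, a change of -0.30 without overlap (limma adjusted p = 0.471). Nop56, a core protein of box C/D snoRNA particles whose gene also hosts snoRNAs, stood on the other side with 0.34 ± 0.17 (SE, adjusted p = 0.547), and its cluster with the most probes changed by -0.20. The factors' mean deviations were 0.048, 0.112 and -0.039 in PBS and -0.037, -0.003 and -0.081 in KYNA, so the groups overlapped.

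Among 20 genes of RNA polymerase I and its factors, which transcribe ribosomal RNA, the median was -0.015. At an unadjusted limma p under 0.05, 0 were higher and 2 lower (10% beside 5.03% of all genes). Groups without overlap were found for 1 gene higher and 3 lower (5% and 15%), against 7.16% and 7.62% of all genes. Znrd1, a small polymerase I subunit, had 5.54, 5.68 and 5.68 in PBS and 5.08, 5.31 and 5.17 in KYNA, a change of -0.45 without overlap (limma adjusted p = 0.471). Taf1a, of the polymerase I selectivity factor, changed by -0.34 ± 0.20 (SE). The 28 translation initiation factors measured of 29 had a median of -0.045, with 0 higher and 2 lower (7.14% beside 5.03% of all genes) at an unadjusted p under 0.05. Without overlap were 2 higher and 3 lower (7.14% and 10.7%). Eif1, which guards start codon choice, changed by -0.22 ± 0.09 (SE) and Eif2s2 by -0.21 ± 0.12.

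The 21 genes of mTORC1 and TOP regulation had a median of 0.01. At an unadjusted p under 0.05, 1 was higher and 3 were lower (4.76% and 14.3%, beside 4.7% and 5.03% of all genes). Groups without overlap were found for 4 higher and 2 lower (19.0% and 9.52%, beside 7.16% and 7.62% of all genes). Mycn, a transcription factor of the Myc family, had 3.05, 3.16 and 2.95 in PBS and 3.55, 3.24 and 3.40 in KYNA (change 0.34, limma adjusted p = 0.471), all values below that array's background mean. The part of the background in this change was not tested. Mlst8, a subunit of both mTOR complexes, changed by -0.30 ± 0.12 (SE). Of 13 genes of ribosomal stress and p53, 0 were higher and 1 lower (7.69%), with Sesn1 at -0.27 ± 0.11 and Mdm4, a partner of Mdm2, at -0.15 ± 0.08. In that list 1 gene higher and 3 lower had groups without overlap (7.69% and 23.1%). The 75 genes with a mitochondrial ribosomal protein symbol, which include the pseudogene symbol Mrps36-ps1, had a median of -0.047 that became 0.0055 with cyclic loess, with 2 higher and 2 lower (2.67% each). Without overlap were 2 higher and 7 lower (2.67% and 9.33%). The farthest from 0 were Mrpl14 at 0.27 and Mrps36-ps1, of class 3, at -0.36. In each of these lists 0 genes passed the adjusted threshold. Cyclic loess also turned the medians of the polymerase I list to 0.0064 and of the p53 list to 0.0085, and centring turned those of the mTORC1 list to -0.0267 and of the ribosomal proteins outside the pattern to -0.0083.

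**Figure D5:**
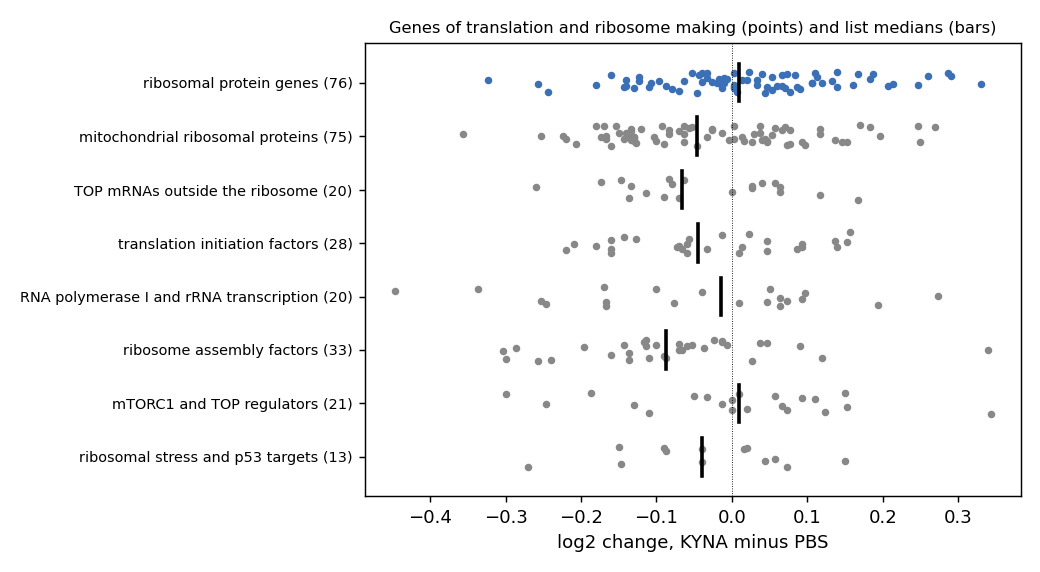
Log2 change between KYNA and PBS (x axis) of each gene (point) is plotted for the ribosomal protein genes and 7 other lists of translation and ribosome production (y axis, number measured in brackets), with the median as a bar. The ribosomal protein genes lie on both sides of 0 around a median of 0.01, and the assembly factors have the lowest median, -0.087.

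The cells carried adipocyte markers in all arrays. Fabp4, the fatty acid binding protein of fat cells, lay between 12.45 and 12.58 log2 and Adipoq between 9.54 and 9.70, and the 13 adipocyte markers measured of 14 had a median change of -0.04 with 0 called at an unadjusted limma p under 0.05. Median changes were -0.067 for 11 of 12 preadipocyte and fibroblast markers (Lum at -0.33 and Thy1 at -0.18), -0.12 for 9 of 10 macrophage markers (Ptprc at -0.31 and Cd14 at -0.27) and -0.03 for 7 lymphocyte markers (Cd3e at 0.07 and Cd4 at 0.06). Without KYNA array 3 the preadipocyte and fibroblast median was -0.0117 and the macrophage median -0.0033, and Lyz2 and Cd163 of the macrophage list had changes of 0.08 and 0.11. The medians were 0.137 for 7 endothelial markers (Cdh5 at 0.51 and Esam at 0.25) and 0.167 for 7 skeletal muscle markers (Ckm at 0.31 and Myog at 0.28). These 3 lists also had members on the other side of 0. They were 4 of 11 preadipocyte and fibroblast markers (Col1a1 at 0.14 the farthest), 2 of 7 endothelial (Tek at -0.09 and Tie1 at -0.04) and 1 of 7 muscle (Acta1 at -0.11). Many of these markers lay near or below the antigenomic means, such as Lum, Ckm, Myh1, Myh4, Mylpf, Kdr, Tie1 and Esam. Those means themselves were 3.58 to 3.76 in PBS and 3.76 to 3.91 in KYNA. In the endothelial list the 3 KYNA arrays (0.056 to 0.083) lay above the 3 PBS arrays (-0.107 to -0.041) in mean deviation, and Cdh5 in its cluster with the most probes changed by -0.01. Lyz2 (10.44 to 10.84) and Cd68 (9.69 to 9.85) of the macrophage list were well above background in all arrays. Their part in the ribosomal protein values was not tested. In a bulk sample, fewer cells of a type and less RNA per cell cannot be told apart.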

How the data were processed

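Total RNA was made into biotin-labelled sense-strand DNA and hybridised, per the labels' protocols. The authors deposited log2 intensities from RMA, per the file headers, in Affymetrix Expression Console 1.41, per the submitters' processing notes, and are rounded to 2 decimals. RMA subtracts background and gives all arrays the same distribution, so a shift of most transcripts is removed. Coordinates are those of the NetAffx annotation (build 34, mm10), per the file headers. Both deposited tables held the same values for 41345 clusters, of which 29726 carried a symbol.

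KYNA was compared with PBS over 27365 genes by limma 3.58.1 in R 4.3.3 (lmFit and eBayes, two-sided, no covariates, no filter), with Benjamini-Hochberg adjustment at a threshold of 0.05. The script was tested on simulated data. Changes are KYNA minus PBS, and the error is the limma standard error with 3 arrays per group. The number of arrays limits the precision. No set test was run, and lists are described by counts and medians.

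A cluster was called own-gene if it covered at least 50% of the RefSeq gene (GRCm38.p6) on its strand. Genes named were a fixed list of stalk, core, paralog and disease genes, the 6 largest changes in each direction, the 3 smallest p in each direction, genes whose clusters differed by over 0.2, genes with a group mean below the antigenomic mean, and 2 genes from each other list. Rps4x and Rps4l of the fixed list were not analysed here, and 4 genes that the rule takes are not reported by name. Rpl7a, Rpl14, Nop58, Gnl2, Fabp4, Adipoq, Lyz2, Cd68, Cd163, Col1a1, Tek, Acta1, Myh1, Myh4, Mylpf, Kdr and Tie1 were named after their values were seen. The members and lists were chosen with earlier results of these data known. Alternatives were other normalisations, clusters, filters and fits and leaving out each array.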

Additional observations from a re-analysis of the deposited data

How the results depend on the processing

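In each of 17 alternatives 0 ribosomal protein genes and 0 genes of the other lists passed the adjusted threshold, and the family's median change stayed between -0.03 and 0.04 (-0.0008 to 0.0358 when 1 array was left out). Centring moved the median of all genes to -0.03 too, and why single values turned under it was not tested. Counts at an unadjusted p under 0.05 were 3 higher and 0 lower, and became 0 higher with arrays centred on their medians. The lower count became 1 with centring, an intensity trend, class 1 clusters only or own-gene clusters, and 3 without both arrays numbered 2 (a setting chosen, like the own-gene clusters, after seeing the data). Leaving out 1 array gave 0 to 4 higher and 0 to 4 lower. Genes without overlap numbered 4 higher and 1 lower. The higher count became 2 with centring and 17 without both arrays numbered 2. The lower count became 2 with cyclic loess or class 1 clusters only and 14 without both arrays numbered 2. Leaving out 1 array gave 5 to 13 and 1 to 7, where fewer arrays make non-overlap easier. The shares over all genes under these alternatives are not given here, so these counts cannot be set against a background.

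Replicate numbers are shared by the groups, and correlations of same-numbered arrays were 0.037, 0.068 and 0.094, below the limit of 0.1 set for pairing, although each array correlated best with its own number. With the replicate number as a block, 0 genes passed, with 3 higher and 0 lower at an unadjusted p under 0.05. The methods' t-test passed 0 after Benjamini-Hochberg adjustment, with 2 higher and 0 lower before it.

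Of 63 named genes 41 kept their direction in all alternatives. With centring, Rpl10l was -0.033, Rpl13 -0.023, Rpl27a -0.017, Rpl35a -0.03 and Rps16 -0.0033. With cyclic loess, Rpl10l was -0.022, Rpl41 0.019, Rps16 -0.014 and Rps27l 0.041. With the most-probed cluster, Rpl41 was 0.28, Nop56 -0.20 and Cdh5 -0.0067. With the mean of all clusters, Rpl41 was 0.14 and Rps12 -0.046. With class 1 clusters only, Rpl27a was -0.10, Rpl41 0.28, Rps12 -0.39 and Rps3a1 0.083. With own-gene clusters, Rpl27a was -0.10, Rpl41 0.28, Rplp2 -0.04 and Rps13 0.12. Without both arrays numbered 2, Rpl13 was -0.005, Rpl13a -0.11, Rpl27a -0.015, Rpl39 0.02, Rps16 -0.02 and Rpsa -0.04. These turns under another cluster follow from reading other probes, and for the rest the cause was not tested.

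Leaving out 1 array also turned values through 0. The ranges were -0.01 to 0.18 for Cd3e, -0.11 to 0.22 for Cd4, -0.042 to 0.048 for Rpl10l, -0.022 to 0.058 for Rpl13, -0.052 to 0.12 for Rpl13a, -0.0033 to 0.053 for Rpl27a, -0.29 to 0.065 for Rpl30, -0.0017 to 0.018 for Rpl35a and -0.068 to 0.067 for Rpl39. They were -0.038 to 0.13 for Rpl39l, -0.032 to 0.0033 for Rpl41, -0.13 to 0.16 for Rps16, -0.052 to 0.012 for Rps27a, -0.042 to 0.015 for Rps27l, -0.18 to 0.027 for Rps6 and -0.015 to 0.10 for Rpsa.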
